A study of Mus musculus with 10 samples.

Results

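Messenger RNA of 3 libraries with miR-342-3p overexpression was compared with that of 3 libraries with a miR-342-3p sponge, which are opposite perturbations of the same microRNA. These 6 libraries were chosen by their titles out of 10 in the series. The other 4 carried control vectors, a mutated miR-342-3p hairpin (n = 2) or a scramble sponge (n = 2), and they show how cells with the 2 kinds of vector differ without an intact hairpin or the sponge. All were bulk RNA sequencing libraries of a mouse cell line labelled iKCs. The cells had been transduced with 1 of the 4 vectors, and viable cells that carried the fluorescent marker mOrange were sorted. Overexpression cells thus differ from sponge cells in vector type as well as in the microRNA. The promoter of each vector and the sequence of the mutated hairpin are not given in the sources used here. The word biological stands before each replicate number in the titles. Whether cultures were grown apart is not stated, so the p-values rest on a spread between libraries that may be technical.

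MicroRNAs are short RNAs that guide Argonaute proteins to messenger RNAs. Pairing rests mainly on the seed, a stretch near the 5′ end of the microRNA, with a match in the 3′ untranslated region (UTR) of the target, and a bound messenger RNA is usually destabilised. A sponge is a transcript with many binding sites that is meant to draw a microRNA away from its targets. A direct target would be lower with overexpression than with the sponge, and a sponge can act only on a microRNA that the cells make.

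The microRNA is shown first because its seed defines the sites discussed below. Mature mouse miR-342-3p (RefSeq, GRCm38.p6, chr12:108658680-108658702, plus strand) has its seed, bases 2 to 8, in capitals.
miR-342-3p: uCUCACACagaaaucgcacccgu
The strongest class of seed match, the 8mer, is GTGTGAGA in the messenger RNA. The following 30-base windows surround this match, in capitals, in the 3′ UTRs of 6 genes that were lower with overexpression than with the sponge. They are given 5′ to 3′ on the strand of the gene, with GRCm38 positions in the GENCODE vM21 annotation, and each lies within a single 3′ UTR exon.
Cpped1 (chr16:11805131-11805160, minus strand): ttctaattgtgGTGTGAGActtcccacgtg
Wasl (chr6:24615982-24616011, minus strand): agtttaattatGTGTGAGActgacacaaac
Casp2 (chr6:42282266-42282295, plus strand): ctacatatcacGTGTGAGAcaacttctttc
Ednrb (chr14:103816929-103816958, minus strand): ggtgtgcgcgcGTGTGAGAgggattatttt
H2aw (chr11:58955788-58955817, plus strand): ggttaaactagGTGTGAGAgtacagcagtg
Fubp3 (chr2:31616210-31616239, plus strand): ccccgaaatcaGTGTGAGAgaaacctgttt
A match is a description of the sequence and does not show that the microRNA binds there.

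Depth ran from 25713110 to 59260772 counts per library with overexpression and from 43089643 to 50982195 with the sponge. Macrophage markers were plentiful in all 10 libraries (Adgre1 from 418 to 486 CPM, Csf1r from 1779 to 2334 CPM; CPM are counts scaled to library size). Of 7 Kupffer cell markers, Clec4f and Timd4 were at 0 in all 10 and Vsig4 stayed at or below 0.0934 CPM. The other 4 were found at low levels in all 10, Marco at 2.60 to 4.26 CPM, Clec1b at 2.00 to 2.80 CPM, Cd5l at 1.35 to 2.79 CPM and Folr2 at 0.416 to 1.09 CPM. Libraries of one group were not always the most alike. Overexpression replicate 1 lay nearest to sponge replicate 3 (root mean square log2 difference of 0.178), nearer than to overexpression replicates 2 (0.213) and 3 (0.283). Overexpression replicate 3 lay nearest to a scramble library (0.132). The part of these likenesses in the results was not tested beyond leaving libraries out. Sponge replicate 3 is also the library whose counts stood joined to those of a scramble library in the deposited table and were separated here.

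Counts of the Mir342 gene, which the deposited file places at chr12:108624879-108624977, followed the titles. This position is not on the GRCm38 build used for the sequences above. Mir342 had 8.22, 11.3 and 9.41 CPM with overexpression, against 0 reads in each of the 3 sponge libraries. With a floor of 3 counts in the shallowest sponge library (0.0703 CPM) the mean was at least 137-fold higher (edgeR adjusted p = 4.3e-05). The mutated control had 2.86 and 3.22 CPM and the scramble libraries 0, so these reads were found with both hairpin vectors, and they do not show whether the sponge lowered the mature microRNA. Its host gene Evl had 92.8, 82.1 and 81.4 CPM with overexpression and 85.2, 95.9 and 89.1 CPM with the sponge (log2 fold change −0.07, SE 0.07, edgeR adjusted p = 0.619). Slc7a11, a cystine transporter subunit, had 11.98, 15.7 and 17.5 CPM with overexpression and 14.4, 11.6 and 12.3 CPM with the sponge, which overlapped (log2 fold change 0.22, SE 0.16, edgeR adjusted p = 0.495). Both arms lay below their own controls in mean level. Slc7a11 had 40.6 and 43.1 CPM in the mutated control and 15.7 and 22.3 CPM in scramble. Its log2 fold change was −1.49 (SE 0.16) for overexpression over the mutated control and −0.59 (SE 0.17) for the sponge over scramble.

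Cyclins of the G1 phase, monocyte chemokines, Tnf and Klf2 were higher with overexpression than with the sponge. The endothelin receptor gene Ednrb, the heparanase gene Hpse and the signalling suppressor gene Socs6 were lower. In all, 121 of 15767 tested genes passed an edgeR adjusted p of 0.05 (0.767% of those tested), of which 76 were higher (0.482%) and 45 lower (0.285%). At least 1.5-fold changes made up 69 of the 121 (0.438% of those tested). The rises were larger, with a median log2 fold change of 0.74, than the falls, with a median of −0.55. In all 121 the 3 overexpression values lay on one side of the 3 sponge values. Over all tested genes that held for 17.8%, with overexpression higher in 8.71% and lower in 9.09%. The plot of fold change against level shows the calls at all levels of expression.

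The count of 121 turned on single libraries. Without overexpression replicate 2 it was 13, without sponge replicate 1 it was 14 and without sponge replicate 2 it was 23. Without overexpression replicate 1 it was 97, of which only 63 were among the 121, and without overexpression replicate 3 it was 582. With sponge replicates 1 and 2 alone, thus without the sponge library of the joined field, it was 925. Leaving out 1 of the 4 control libraries left its group with 1, which adds nothing to the estimate of the spread. Such fits have fewer degrees of freedom and say little about single libraries. The 2 fits of a control group are near copies in the tallies of 10 fits below. With any 1 of the 10 left out, 11 genes still passed. They were Mir342, Klf2, Plk3, Epha2, Adam8, Ccl2, Hpse, Cpped1, Socs6, the unnamed locus Gm14303 and the pseudogene Rps27a-ps3. Without the 2 libraries that lay nearest to each other across the groups, overexpression replicate 1 and sponge replicate 3, which was tried after seeing the data, the count was 1572.

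Of the 35 genes named by rule that passed, all still passed without overexpression replicate 3 or sponge replicate 3. The call of Ccl7 was lost without sponge replicate 1, and those of Ccnd1, Ccnd2, Cnrip1 and Wasl were lost without overexpression replicate 2 or sponge replicate 1. Casp2, Ccl12, Ednrb, Egr2 and Hmox1 lost their calls without any of overexpression replicate 2, sponge replicate 1 and sponge replicate 2, and Nfkbid without either of these sponge libraries. Etv5, Egr3 and Dnajc28 passed in 4 of the 10 fits with 1 library left out, Fubp3 and Narf in 3, and H2aw, Zfp367 and Id1 in 2.

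The D-type cyclins, which bind cyclin-dependent kinases to start the cell cycle, made the largest rises among genes above a mean of 4 CPM. Ccnd1 had 79.5, 99.9 and 71.3 CPM with overexpression, against 14.8, 7.56 and 21.4 CPM with the sponge (log2 fold change 2.53, SE 0.33, edgeR adjusted p = 0.00879). Every overexpression library was more than 3 times any sponge library, while the sponge libraries varied among themselves by nearly that much. Ccnd2 had 24.5, 27.03 and 19.95 CPM with overexpression and 6.34, 4.47 and 8.41 CPM with the sponge (log2 fold change 1.91, SE 0.26, edgeR adjusted p = 0.0109). With 1 library left out their highest edgeR adjusted p-values were 0.0735 for Ccnd1 and 0.0834 for Ccnd2. The controls stood between the arms or beside the sponge, with Ccnd1 at 20.4 and 37.3 CPM in the mutated control and 16.2 and 22.8 CPM in scramble.

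Few other cell cycle genes passed. Of 40 tested members of the cell cycle list, which does not hold Ccnd2, 2 rose, Ccnd1 and E2f5, an E2F family factor (log2 fold change 0.41, SE 0.08, edgeR adjusted p = 0.0449), and 0 fell. Rises made up 0.482% of all tested genes and falls 0.285%. The list had 16 members above 0 and 24 below, with a median log2 fold change of −0.03, against −0.01 over all tested genes. The call of E2f5 held in 2 of the 10 fits with 1 library left out.

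Genes known to follow growth factor and MAP kinase signalling were among the rises. Etv5, an ETS family transcription factor, had 59.5, 74.4 and 46.2 CPM with overexpression and 22.5, 16.5 and 29.6 CPM with the sponge (log2 fold change 1.40, SE 0.23, edgeR adjusted p = 0.0274). Epha2, an ephrin receptor, was low but tight, with 1.35, 1.38 and 1.36 CPM with overexpression and 0.378, 0.256 and 0.328 CPM with the sponge (log2 fold change 2.09, SE 0.23, edgeR adjusted p = 0.00328). Dusp4, a phosphatase that switches MAP kinases off, had 59.6, 79.03 and 63.8 CPM with overexpression and 39.8, 31.2 and 42.3 CPM with the sponge (log2 fold change 0.84, SE 0.14, edgeR adjusted p = 0.0274). For all of them the lowest overexpression library lay above the highest sponge library. The mean of the mutated control lay above that of scramble for these genes, with log2 fold changes of 0.32, 0.69 and 0.31 for Etv5, Epha2 and Dusp4. None of them passed between the controls. For Etv5 the mutated control (27.0 and 40.1 CPM) overlapped scramble (23.2 and 30.3 CPM).

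Chemokines, which draw leukocytes into tissue, were among the rises: 5 of 20 tested members rose (Ccl7, Ccl12, Ccl2, Cxcl2 and Ccl4) and 0 fell. Over all tested genes 0.482% rose and 0.285% fell. Ccl7, a ligand that recruits monocytes, had 136, 103 and 89.3 CPM with overexpression and 39.4, 32.8 and 50.7 CPM with the sponge (log2 fold change 1.42, SE 0.17, edgeR adjusted p = 0.00733). Ccl2, the main monocyte chemoattractant, had 362, 288 and 273 CPM with overexpression and 147, 124 and 162 CPM with the sponge (log2 fold change 1.09, SE 0.11, edgeR adjusted p = 0.00234). Overexpression replicate 1 was the highest for both, and the groups were far apart. Ccl12, a mouse chemokine of the same cluster, had 23.04, 20.1 and 17.5 CPM with overexpression and 9.09, 7.54 and 11.3 CPM with the sponge (log2 fold change 1.13, SE 0.17, edgeR adjusted p = 0.0184). Cxcl2, a neutrophil chemoattractant, had 550.2, 394 and 403 CPM with overexpression and 270.5, 275 and 293 CPM with the sponge (log2 fold change 0.69, SE 0.11, edgeR adjusted p = 0.0245).

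The chemokine genes differed in what the controls did. Between the control vectors Ccl2 had a log2 fold change of 0.68 (mutated control 173 and 182 CPM, scramble 112 and 110.2 CPM) and Cxcl2 one of 0.53, while Ccl12 had 0.07. The chemokine list had 14 members above 0 and 6 below, with a median of 0.14. That median was 0.06 without overexpression replicate 1 and 0.25 without overexpression replicate 2.

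Tnf, the macrophage cytokine, had 73.9, 76.2 and 60.9 CPM with overexpression and 30.5, 20.9 and 39.7 CPM with the sponge (log2 fold change 1.22, SE 0.18, edgeR adjusted p = 0.0193), and the controls lay with the sponge (27.01 and 31.02 CPM in the mutated control and 25.2 and 29.2 CPM in scramble). It was the 1 member of 26 in the inflammatory cytokine list that rose, and 0 fell, against 0.482% and 0.285% of all tested genes. The next smallest p of that list belonged to Tnfsf9, a costimulatory ligand, which did not pass (log2 fold change 0.69, edgeR adjusted p = 0.057). The call of Tnf was lost without overexpression replicate 1 or 2 or sponge replicate 1 (highest edgeR adjusted p 0.122). Of 18 tested NF-kB subunits and feedback genes 1 rose, the nuclear inhibitor Nfkbid (log2 fold change 0.67, SE 0.10, edgeR adjusted p = 0.0149), and 0 fell, with 16 members above 0.

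Immediate early and Kruppel-like factors, transcription factors and regulators induced within minutes of a stimulus, held 6 rises among 33 tested (Klf2, Egr2, Egr3, Dusp4, Maff and Myc) and 0 falls. Among all tested genes 0.482% were rises and 0.285% falls. Klf2, a zinc finger factor that restrains macrophage activation, had 46.2, 50.8 and 46.4 CPM with overexpression and 18.1, 18.5 and 22.7 CPM with the sponge (log2 fold change 1.27, SE 0.10, edgeR adjusted p = 0.000454). The replicates of each group lay within a few CPM of each other. Egr2 had 81.9, 68.04 and 87.5 CPM with overexpression and 34.2, 40.5 and 48.6 CPM with the sponge (log2 fold change 0.94, SE 0.14, edgeR adjusted p = 0.0193), and Egr3 had a log2 fold change of 1.40 (SE 0.25, edgeR adjusted p = 0.0368). Egr3 in the mutated control (26.6 and 54.4 CPM) overlapped overexpression (46.0, 36.3 and 59.9 CPM). Its log2 fold change was 0.22 (SE 0.27) for overexpression over the mutated control and 0.75 between the control vectors. Plk3, a stress-responsive polo-like kinase, had 34.6, 32.6 and 34.7 CPM with overexpression and 17.3, 16.3 and 18.02 CPM with the sponge (log2 fold change 0.98, SE 0.08, edgeR adjusted p = 0.000511). It is outside the list, and its call held with any 1 library left out, as did that of Klf2. The list as a whole had a median of 0.24, and between the control vectors its median was 0.20, nearly as large.

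Other rises were Plau, Adam8, Bcl2l1 and Hmox1. Plau, the urokinase plasminogen activator, had 171, 179 and 124 CPM with overexpression and 77.4, 53.4 and 92.6 CPM with the sponge (log2 fold change 1.09, SE 0.18, edgeR adjusted p = 0.0317). Adam8, a membrane metalloprotease of leukocytes, had 220.3, 229 and 222 CPM with overexpression and 147, 148 and 161 CPM with the sponge (log2 fold change 0.56, SE 0.06, edgeR adjusted p = 0.00234). Its groups were far apart for the small spread within each, and the control vectors gave it a log2 fold change of −0.04. Bcl2l1, which encodes the survival factor BCL-XL, had 126, 122 and 88.6 CPM with overexpression and 55.97, 43.7 and 66.1 CPM with the sponge (log2 fold change 1.02, SE 0.16, edgeR adjusted p = 0.0226). Hmox1, haem oxygenase, was the most abundant of these, with 795, 817 and 786 CPM with overexpression and 533, 514 and 603 CPM with the sponge (log2 fold change 0.54, SE 0.08, edgeR adjusted p = 0.0184); it was also high in the mutated control (726 and 857 CPM). The call of Plau held in 2 of the 10 fits with 1 library left out, that of Bcl2l1 in 6 and that of Hmox1 in 7. The remaining named rise was Sncaip, which encodes a synuclein-binding protein (log2 fold change 1.19, SE 0.23, edgeR adjusted p = 0.0464, call held in 2 of 10). Sncaip in the mutated control (5.29 and 5.78 CPM) overlapped overexpression (6.45, 6.82 and 5.33 CPM). Its log2 fold change was 0.18 (SE 0.24) for overexpression over the mutated control and 0.68 between the control vectors.

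Smaller rises reached receptors and signalling genes. C5ar1, the receptor of the complement fragment C5a, had 362, 343 and 308 CPM with overexpression and 225, 234 and 252 CPM with the sponge (log2 fold change 0.51, SE 0.08, edgeR adjusted p = 0.0214). Ets2, a transcription factor that acts downstream of growth factor receptors, had 241, 241 and 210.0 CPM with overexpression and 128, 119 and 149.6 CPM with the sponge (log2 fold change 0.80, SE 0.10, edgeR adjusted p = 0.00879). Stab1, a scavenger receptor, had 100.3, 108 and 98.6 CPM with overexpression and 69.7, 68.7 and 66.2 CPM with the sponge (log2 fold change 0.58, SE 0.08, edgeR adjusted p = 0.00879). Spred1, an inhibitor of RAS signalling, and Pdgfb, a growth factor, had log2 fold changes of 0.50 and 0.43. Gpr84, a receptor for medium-chain fatty acids, had 0.96, and Irak2, a kinase downstream of Toll-like receptors, 0.32. The edgeR adjusted p-values of these 4 lay between 0.0184 and 0.0435. The difference between the control vectors was 0.26 for C5ar1, 0.18 for Ets2 and 0.03 for Stab1.

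**Figure D1:**
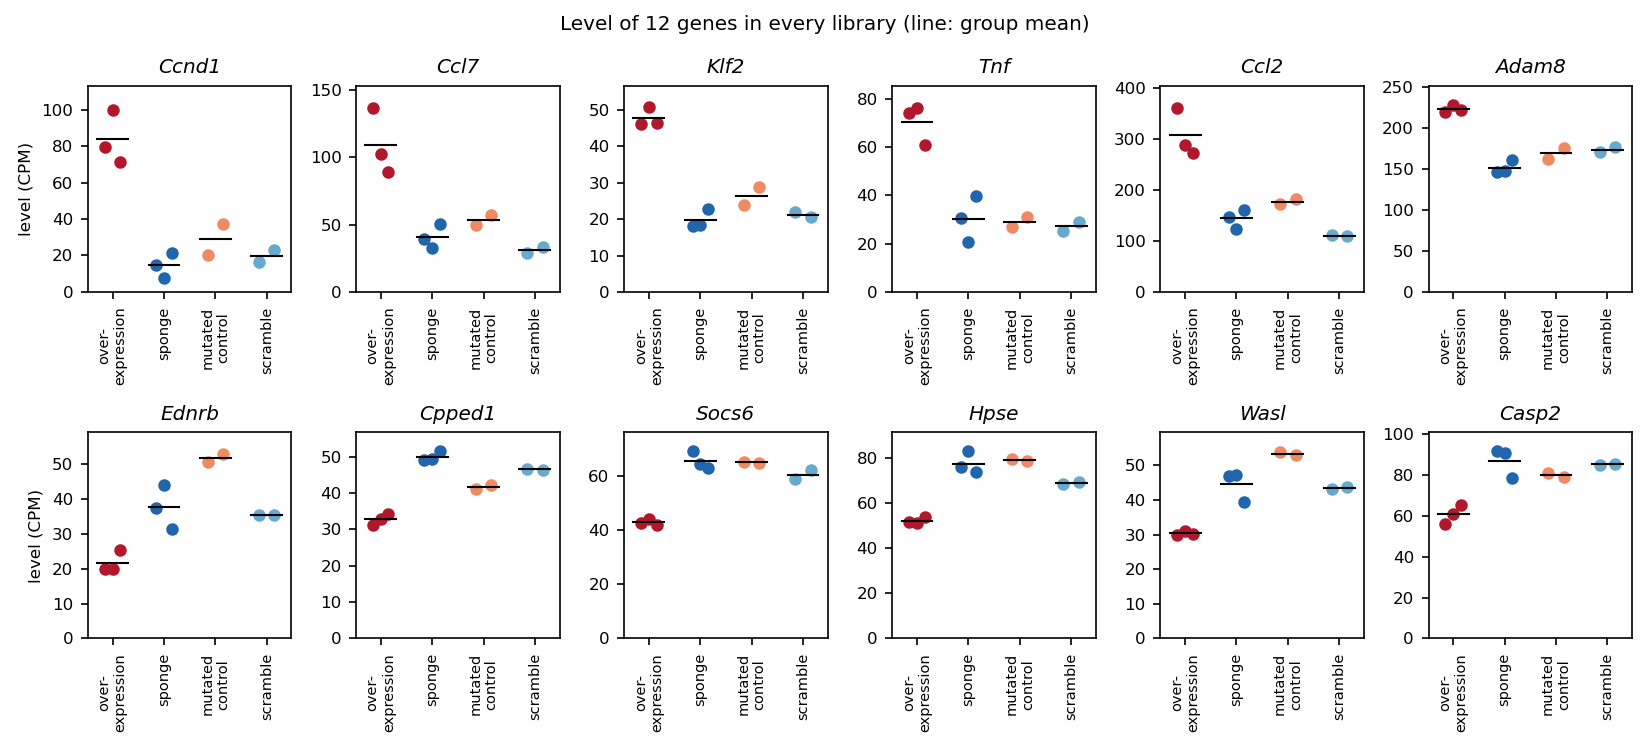
Levels (CPM) of 12 genes in every library, grouped by vector, with a line at the group mean. In all 12 panels the overexpression libraries lie apart from the sponge libraries. Both mutated control libraries lie above both scramble libraries for the rises Ccl7, Ccl2 and Klf2. They do so for the falls Ednrb, Socs6, Hpse and Wasl as well, and lie below both for the falls Cpped1 and Casp2.

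Among the falls, 9 of the 34 genes with an annotated 3′ UTR carried an 8mer match to miR-342-3p (26.5%), against 574 of 12071 tested genes with a UTR (4.76%). Of the 69 rises with a UTR 3 had one (4.35%). Socs6, an adaptor that suppresses cytokine receptor signalling, had 42.7, 44.2 and 41.9 CPM with overexpression and 69.1, 64.4 and 62.9 CPM with the sponge (log2 fold change −0.61, SE 0.06, edgeR adjusted p = 0.00118); its match begins at base 113 of a UTR of 4019 bases. Cpped1, a phosphatase of the calcineurin-like family, had 31.2, 32.8 and 34.3 CPM with overexpression and 49.2, 49.3 and 51.4 CPM with the sponge (log2 fold change −0.61, SE 0.06, edgeR adjusted p = 0.00114). The spread within each group was small for both genes, and both calls held with any 1 library left out.

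Wasl, the neural Wiskott-Aldrich protein that drives actin branching, had 29.996, 30.997 and 30.1 CPM with overexpression and 46.9, 47.3 and 39.4 CPM with the sponge (log2 fold change −0.55, SE 0.07, edgeR adjusted p = 0.00879). Ednrb, the endothelin B receptor, had 20.04, 20.003 and 25.3 CPM with overexpression and 37.3, 44.2 and 31.5 CPM with the sponge (log2 fold change −0.80, SE 0.12, edgeR adjusted p = 0.0193). For Wasl and Ednrb the mutated control was the highest group (53.9 and 52.9 CPM for Wasl, 50.8 and 53.1 CPM for Ednrb). Ednrb is also expressed by endothelial and stellate cells. The 8 tested markers of these cells summed to 127 to 161 CPM with overexpression and 175 to 196 CPM with the sponge, and to 166 to 189 CPM in the mutated control, where Ednrb was highest, and 168 to 194 CPM in scramble. Most of the sum was 1 gene, Vwf, the von Willebrand factor, with 95.6, 118 and 127 CPM with overexpression and 158, 163 and 142 CPM with the sponge. The part of such cells in the fall was not tested, and in bulk libraries fewer cells of a type and less RNA per cell cannot be told apart. Casp2, an initiator caspase, had 56.2, 61.1 and 65.2 CPM with overexpression and 91.7, 90.7 and 78.9 CPM with the sponge (log2 fold change −0.52, SE 0.07, edgeR adjusted p = 0.0149).

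The remaining 4 falls with an 8mer had edgeR adjusted p-values nearer the threshold. H2aw, a histone gene, had a log2 fold change of −0.52 (SE 0.10) and Fubp3, a nucleic acid-binding protein gene, one of −0.35 (SE 0.06). Zfp367, a zinc finger gene, had −0.31 (SE 0.06) and Kdsr, an enzyme of sphingolipid synthesis with 2 matches in its UTR, −0.33 (SE 0.06). These edgeR adjusted p-values lay between 0.0368 and 0.0486.

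Falls without an 8mer included Hpse, Pdgfc and Cnrip1. Hpse, heparanase, which cleaves heparan sulfate of the matrix, has no match of any class in its UTR and had 51.6, 51.3 and 53.7 CPM with overexpression and 75.8, 82.9 and 73.6 CPM with the sponge (log2 fold change −0.57, SE 0.06, edgeR adjusted p = 0.00234). Pdgfc, a platelet-derived growth factor, had 7.70, 6.75 and 11.3 CPM with overexpression and 15.9, 21.7 and 13.05 CPM with the sponge (log2 fold change −1.01, SE 0.20, edgeR adjusted p = 0.0499). The highest overexpression value of Pdgfc came close to its lowest sponge value, and its call held in 2 of the 10 fits with 1 library left out. Cnrip1, a cannabinoid receptor-interacting protein with a 7mer-m8 match, had 36.1, 28.2 and 29.8 CPM with overexpression and 51.1, 49.6 and 52.9 CPM with the sponge (log2 fold change −0.70, SE 0.09, edgeR adjusted p = 0.00879). Other large falls were Dnajc28 (−0.56) and Narf (−0.51), of which Narf was the more abundant, with 29.4, 35.3 and 38.2 CPM with overexpression and 48.5, 48.3 and 49.5 CPM with the sponge.

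Ptafr, the receptor of platelet-activating factor, had 29.4, 25.1 and 32.1 CPM with overexpression and 40.3, 43.8 and 36.6 CPM with the sponge (log2 fold change −0.48, SE 0.09, edgeR adjusted p = 0.043). Pirb, an inhibitory receptor whose relatives may share its reads, had 244, 237 and 250.2 CPM with overexpression and 295, 298 and 288 CPM with the sponge (log2 fold change −0.27, SE 0.05, edgeR adjusted p = 0.0375). Pirb was lower in the mutated control than in scramble as well, by a log2 fold change of −0.33.

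Small falls reached 2 very abundant genes. Psap, which encodes the saposin precursor of lysosomes, had 5438, 4916 and 5494 CPM with overexpression and 6513, 7461 and 6724 CPM with the sponge (log2 fold change −0.39, SE 0.07, edgeR adjusted p = 0.0417). Gpnmb, a glycoprotein of lipid-loaded macrophages, had 2597, 2549 and 2778 CPM with overexpression and 3205, 3438 and 3301 CPM with the sponge (log2 fold change −0.33, SE 0.06, edgeR adjusted p = 0.0368). They were the 1 fall among 32 tested genes of the lysosome list and the 1 fall among 20 of the lipid-associated macrophage list, with 0 rises in both. Falls made up 0.285% of all tested genes and rises 0.482%. The calls of Psap and Gpnmb held in 3 and 2 of the 10 fits with 1 library left out.

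Of the 45 falls 7 were ribosomal protein pseudogenes, whose reads can be shared with the parent genes, so their values are uncertain. They had at most 7.31 CPM in any of the 6 libraries. Over the 62 tested pseudogenes of this kind the median log2 fold change was −0.29, and it was −0.23 between the control vectors.

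The 2 control vectors differ in type as the 2 arms do, a hairpin vector against a sponge vector. Their 4 libraries are none of the 6 above, though all 10 share 1 estimate of the spread. Between them 4 genes passed (0.0254% of those tested), Mir342, the interferon-induced GTPase gene Tgtp2, and Lilra6 and Pira12, immunoglobulin-like receptor genes whose near-identical relatives may share reads. That count was 36 without overexpression replicate 1 and 9 without overexpression replicate 3. Of the 121 called genes 93 had the same sign there (76.9%), against 8372 of all 15767 (53.1%). For the rises it was 64 of 76 (84.2%) and for the falls 29 of 45 (64.4%). The differences were smaller, with a median of 0.22 for the genes called as rises and −0.09 for those called as falls. At an unadjusted edgeR p under 0.05 with the same sign there were 36 of the 121, where 6.47% of all tested genes passed that threshold in either direction, 679 genes of them with the same sign. With the same sign and at least 0.5 times the log2 fold change of the arms there were 31 of the 121 and 5486 of all 15767. These shares cannot be compared. The 121 were chosen for their differences between the arms, which raises this bar for them.

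The difference between the arms was then tested directly against the difference between the control vectors, and 0 genes passed an edgeR adjusted p of 0.05 (0%). At an unadjusted edgeR p under 0.05 there were 1271 genes (8.06%), 81 of the 121 among them. The 121 were chosen by the difference between the arms, which is part of the difference tested here. A larger share among them is thus built in and shows nothing about vector type. DESeq2 called 48 genes and limma-voom 0. With 1 library left out edgeR called 0 to 7. The 5 smallest p-values among the negative differences belonged to Hpse (−0.77, SE 0.09, edgeR adjusted p = 0.0525), Socs6 (−0.71, SE 0.09, edgeR adjusted p = 0.0525), Wasl, Ednrb and Gpr157. The last 3 had −0.85, −1.35 and −0.81, each with an edgeR adjusted p of 0.0585. Among the positive ones they belonged to Adam8 (0.60, SE 0.09, edgeR adjusted p = 0.0978), Klf2 (0.95, SE 0.16, edgeR adjusted p = 0.132), Ece1, Itpk1 and Marchf9. None of these passed. Ece1, Itpk1 and Marchf9 hardly differed between the arms, with log2 fold changes of 0.07, 0.13 and 0.09. Between the control vectors they had −0.59, −0.42 and −0.53, so their positive differences came mostly from the controls. For Ccl2 the difference between the 2 pairs was 0.42 (SE 0.18), for Tnf 1.13 (SE 0.29) and for Ccnd1 1.98 (SE 0.51).

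**Figure D2:**
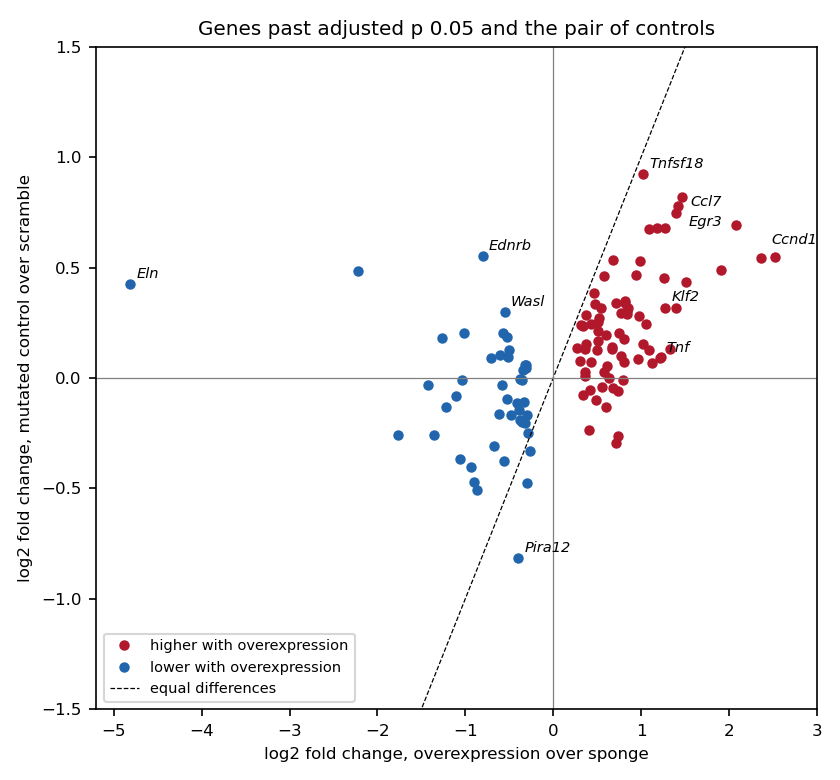
Log2 fold change of mutated control over scramble (vertical) against overexpression over sponge (horizontal) for the called genes except Mir342, red where higher and blue where lower with overexpression. Most rises lie above the horizontal line at 0 (64 of 76 with Mir342 counted), and the dashed line marks equal differences in both pairs.

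Each arm can also be set against its own control, and these 2 comparisons share no library. Overexpression minus mutated control called 85 genes (0.539%) and sponge minus scramble 0 (0%). At an unadjusted edgeR p under 0.05 overexpression minus mutated control had 2874 genes (18.2%) and sponge minus scramble 368 (2.33%). At that unadjusted p 119 genes were counted in both, of which 42 moved in opposite directions and 77 in the same direction. Over all tested genes 6955 had opposite signs and 8812 the same. Of the 42, 15 were also called between the arms, against 0.767% of all tested genes. Opposite moves in the 2 comparisons widen the difference between the same arms, so this count is not a separate test. On the log2 scale Adam8 was 0.40 (SE 0.07) over the mutated control with overexpression and −0.20 (SE 0.06) over scramble with the sponge. Hpse had −0.60 (SE 0.06) with overexpression and 0.17 (SE 0.06) with the sponge, Plk3 0.45 (SE 0.09) and −0.24 (SE 0.09), and Ccnd2 0.66 (SE 0.27) and −0.76 (SE 0.29). Ccl2 was above its control in both, with 0.80 (SE 0.13) and 0.38 (SE 0.13), and so was Ccl7, with 1.03 and 0.39. For other genes the sponge lay near scramble. Klf2 had 0.86 with overexpression and −0.10 with the sponge, Tnf 1.28 and 0.15, Socs6 −0.60 and 0.11, Wasl −0.81 and 0.04, and Ednrb −1.26 and 0.09.

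Across all genes with an 8mer the shift was small. Their median log2 fold change was −0.05, against 0.01 for the 9141 genes with no match, a difference of −0.0543. Taken for each of the 3 overexpression libraries against the sponge mean, the difference had an SD of 0.0780. That SD describes single libraries and leaves out the spread of the sponge libraries, so it is not the error of the difference. Genes with an 8mer passed as falls in 1.57% of cases, against 0.282% of all genes with a UTR. Long UTRs hold more matches, and genes with longer UTRs had lower fold changes (Spearman rho of −0.14 over 12071 genes, a description, since genes share the libraries). Within quartiles of UTR length, bounded at 479, 1130 and 2230 bases, the 8mer genes had medians of 0.03, 0.04, −0.04 and −0.06, and genes with no match 0.03, 0.02, −0.0041 and −0.02. The 8mer genes lay below those with no match in the upper 2 quartiles and above them in the lower 2, which was not tested. All 9 falls with an 8mer were there, in 2.92% of the 137 genes of the third quartile and 1.47% of the 340 of the last, against 0.431% and 0.332% of all genes in those quartiles. Between the control vectors the 8mer genes had a median of 0.03, so the mutated control lay slightly above scramble for them. Genes with no match had −0.01. By quartile these medians were −0.04, −0.01, 0.03 and 0.04 for 8mer genes and −0.03, −0.02, 0.0012 and 0.02 for genes with no match. Both thus rose with UTR length. Genes with the weaker 7mer-m8 match had a median of −0.01.

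**Figure D3:**
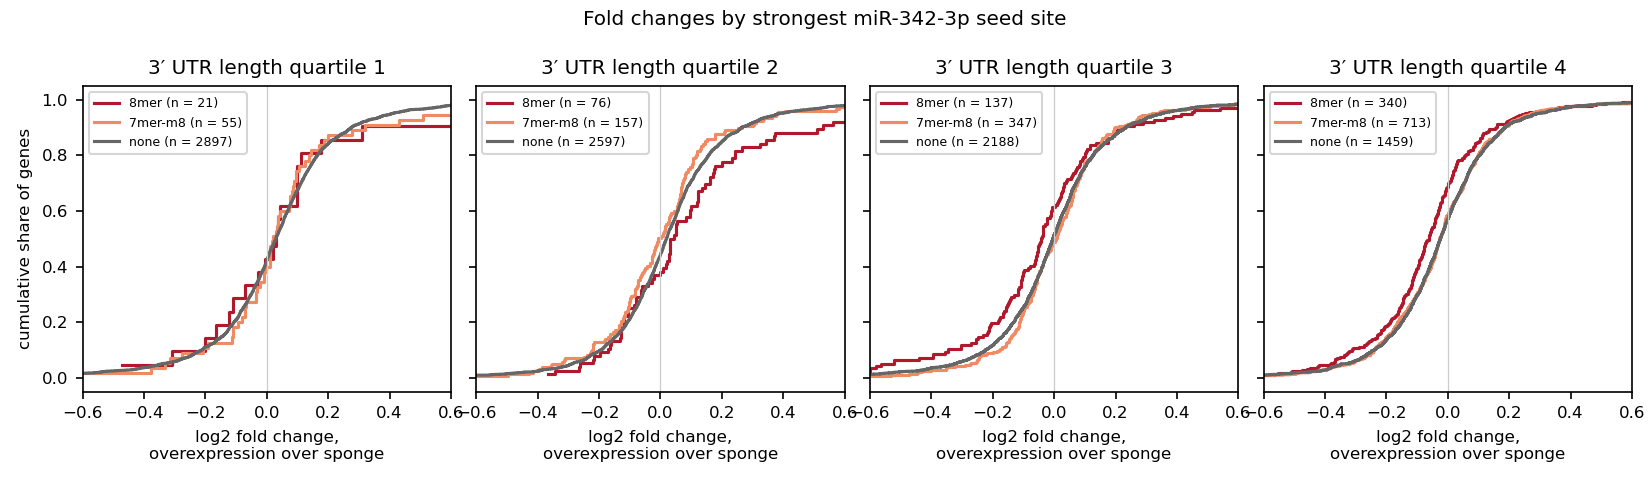
Cumulative share of genes against log2 fold change of overexpression over sponge, in 4 quartiles of 3′ UTR length, for genes whose strongest miR-342-3p match is an 8mer (red), a 7mer-m8 (orange) or none (grey). The red curve lies left of the grey one in quartiles 3 and 4 and not in quartiles 1 and 2, where only 21 and 76 genes have an 8mer.

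Metabolic lists shifted without any member passing. In the sterol synthesis and uptake list 24 of 25 tested genes were above 0, with a median of 0.40, yet 0 passed. Hsd17b7 and Tm7sf2, enzymes of cholesterol synthesis, came nearest, with log2 fold changes of 0.51 and 0.44 and edgeR adjusted p-values of 0.064 and 0.0638. The integrated stress response, the ATF4 programme for amino acid supply, had 30 of 30 above 0 and a median of 0.36, with 0 passing. Slc1a4, an amino acid transporter, had 23.1, 26.7 and 18.01 CPM with overexpression and 12.6, 6.52 and 15.4 CPM with the sponge (log2 fold change 0.99, edgeR adjusted p = 0.088). Glycolysis and hypoxia genes had 26 of 30 above 0 and a median of 0.15, with the glucose transporter Slc2a1 at 0.50 (edgeR adjusted p = 0.0601).

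These shifts did not separate the groups library by library. Sponge replicate 2 was the lowest of all 10 for the sterol and integrated stress lists, with median deviations of −0.39 and −0.50 from the mean of the 10 libraries, while sponge replicate 3 had 0.16 and 0.12, above overexpression replicate 3 (0.14 and 0.05). Without sponge replicate 2 the medians of the 2 lists were 0.23 and 0.24, and without sponge replicate 3 they were 0.52 and 0.55. The part of single libraries in these shifts was not tested further.

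**Figure D4:**
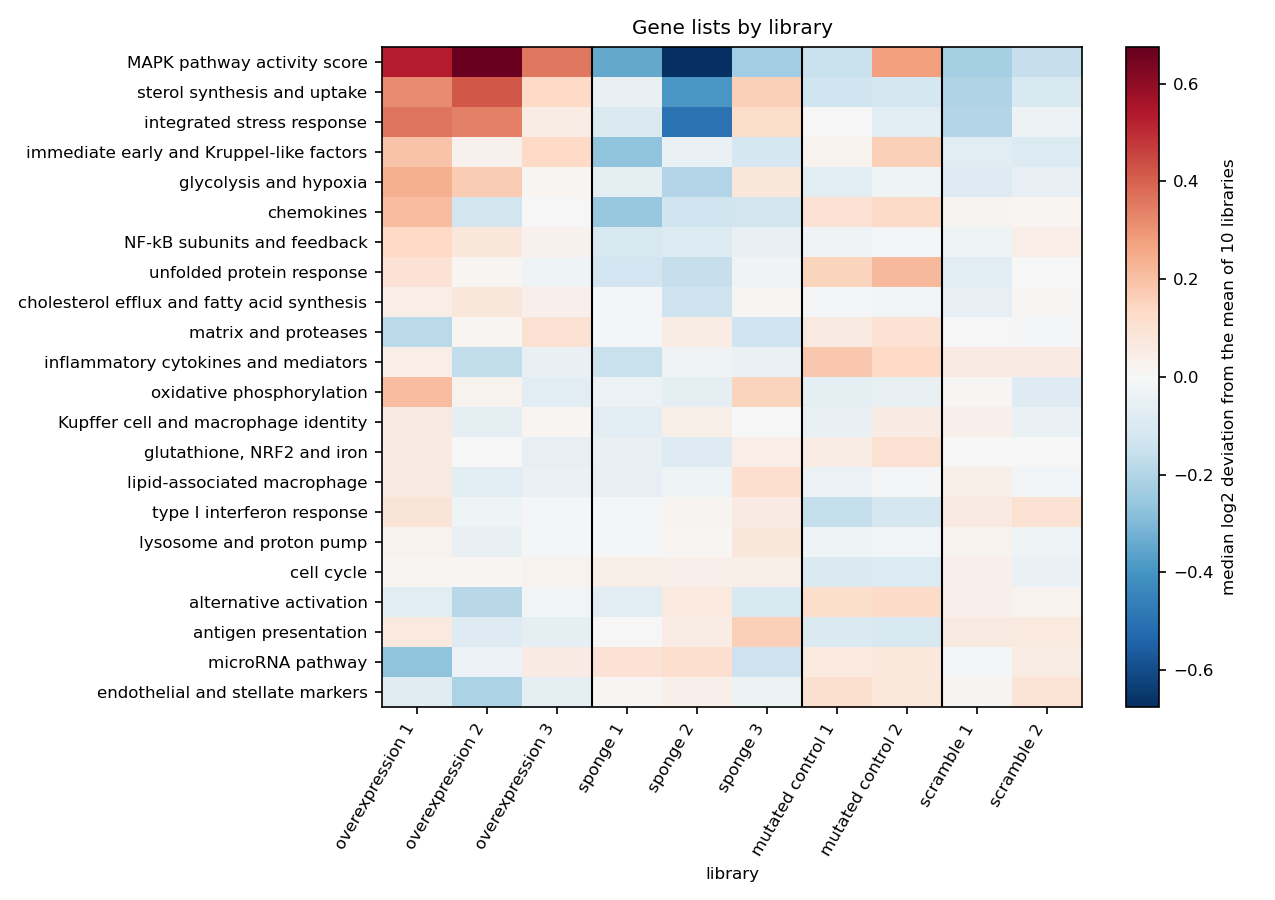
Median log2 deviation of each gene list from the mean of the 10 libraries (colour), for lists with at least 5 tested genes, ordered by their median fold change of overexpression over sponge. The sterol and integrated stress rows are darkest red in overexpression replicates 1 and 2 and darkest blue in sponge replicate 2, with sponge replicate 3 on the red side. The MAPK row was added after values had been seen.

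The lists of macrophage state and defence changed little. Over all tested genes the share called was 0.482% for rises and 0.285% for falls. Of 35 tested type I interferon genes 0 passed (14 above 0, median −0.03), of 21 antigen presentation genes 0 (5 above 0, median −0.09) and of 20 alternative activation genes 0 (8 above 0, median −0.05). Kupffer cell and macrophage identity genes had 1 rise among 28, Id1, an inhibitor of DNA binding at 1.54, 1.42 and 0.934 CPM with overexpression and 0.578, 0.453 and 0.656 CPM with the sponge (log2 fold change 1.26, SE 0.23, edgeR adjusted p = 0.0372), and 0 falls. Glutathione, NRF2 and iron genes had 1 rise among 33, Hmox1, and the matrix and protease list 2 rises (Adam8, Plau) and 1 fall (Hpse) among 19. Oxidative phosphorylation (30 tested, median 0.03), unfolded protein response (21 tested, median 0.13) and cholesterol efflux and fatty acid genes (19 tested, median 0.13) had 0 called. The microRNA pathway, Argonaute and its partners included, had 20 of 25 tested genes below 0 and 0 called (median −0.10, which was 0.0014 without overexpression replicate 1).

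Few markers of other cell types were high enough to be tested. Of the endothelial and stellate list, whose sums are given beside Ednrb, 0 of 8 tested genes passed, and the sinusoidal and stellate genes Clec4g and Lrat, 2 of 18, were at 0 in all libraries. Of 16 hepatocyte markers 1 was tested, Ass1, a urea cycle enzyme that other cells also express. It made up nearly the whole sum of the list, which was 47.2 to 54.3 CPM with overexpression and 47.0 to 53.4 CPM with the sponge, and 7 of the 16 were at 0 in all libraries. Of 18 lymphocyte, neutrophil and erythroid markers 1 was tested, Cd4, and together they stayed at or below 2.26 CPM in sum with overexpression and 2.40 CPM with the sponge, with 6 of 18 genes at 0, Cd3e of T cells and Mpo of neutrophils among them.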

How the data were processed

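Polyadenylated RNA of 10 libraries was sequenced, and groups and replicate numbers came from the titles. The deposited values are raw counts of read pairs per gene name; per the file headers, the authors used featureCounts 2.0.1 with the GENCODE vM30 annotation, strand setting 0 and a minimum overlap of 10 bases, so reads of genes that overlap on opposite strands are pooled. The build GRCm38 and the tools FastQC 0.11.6, Trimmomatic, STAR 2.7.6a and Subread are named, per the submitters' processing notes. The deposited gene positions are not on GRCm38, since that of Mir342 does not hold the GRCm38 position of mature miR-342-3p.

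Each deposited line has 1 field fewer than the header has names (15 against 16), as sponge replicate 3 and a scramble library share a field with no separator. Each joined number was split at its likeliest place (negative binomial, dispersion 0.1, expectation from the 8 intact libraries), and genes were kept where the runner-up split was 100 times or more less likely. This left out 51 of 55866 genes. On 12 pairs of intact libraries joined on purpose at least 99.9016% of genes were recovered. The group of both scramble libraries is certain and their numbering is not.

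All 10 libraries entered 1 edgeR 4.0.16 quasi-likelihood fit (robust, TMM factors, expression filter by group, 6 residual degrees of freedom, R 4.3.3). P-values were adjusted by the Benjamini-Hochberg method across the 15767 genes tested. CPM use TMM factors. The SE came from the fold change and its F statistic. The fit was tested on simulated data. Alternatives were DESeq2 1.42.0, limma-voom (limma 3.58.1), other factors and filters, blocks and left-out libraries. Seed matches came from the longest 3′ UTR in GENCODE vM21, found for 20777 genes (20429 matched on their symbol, 348 on a synonym).

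The rule for named genes took Mir342, Evl and Slc7a11. From the called genes with a standard symbol, separate groups and a mean log2 CPM of 2 or more, it took the 12 largest in each direction. It also took the 2 smallest p-values per list, 8 falls with an 8mer and 5 per direction in the test against the control pair. Plk3, Epha2, C5ar1, Spred1, Pdgfb, Ptafr, Kdsr, the controls' called genes and others outside it were named after their values were seen. A gene that the rule took is not reported here. The comparison, the 23 gene lists and the members were chosen with earlier results of these data known.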

Additional observations from a re-analysis of the deposited data

How the results depend on the processing

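The count of 121 genes between overexpression and sponge was 658 with DESeq2, 1155 with no filter on low counts, 221 without both libraries of the joined field, 15 in a fit of the 6 libraries alone and 69 with a further minimum of 1.5-fold. It stayed within 1.5 times with limma-voom, other size factors and another split of the joined field. Leaving out 1 library gave 13 to 925, and overexpression replicate 1 and sponge replicate 3 together 1572 (added after seeing the data). Deviations of same-numbered overexpression and sponge libraries from their group means correlated at −0.69, −0.11 and −0.84. Those of different numbers ran from −0.55 (overexpression replicate 1, sponge replicate 2) to 0.79 (overexpression replicate 1, sponge replicate 3). Deviations within a group of 3 sum to 0, so these values cannot show whether libraries were prepared in pairs. With a replicate block the count was 27 over all libraries, 2 over the 6 alone, 1 for the control pair and 0 for the test against it. In that test the count of 0 was 48 with DESeq2, 331 with no filter, 0 to 7 with 1 library left out and 271 without the pair of libraries. Between the controls the count of 4 was 90 with DESeq2, 149 with no filter, 1 without the joined libraries, 0 to 36 with 1 library left out and 271 without the pair. The 8mer difference of −0.0543 ran from −0.100 to −0.0104. Over 20 alternatives 0 of 71 named genes changed sign in a pair of fits of which either passed. List medians that moved beyond the spread with 1 library left out ran over 0.06 to 0.19 (efflux), −0.03 to −0.02 (cell cycle), 0.24 to 0.55 (integrated stress), −0.01 to 0.09 (identity), −0.13 to 0.01 (alternative activation) and −0.22 to −0.02 (endothelial and stellate). The median also changed sign with 1 library left out in the inflammatory (−0.04 to 0.14), oxidative phosphorylation (−0.03 to 0.12), interferon (−0.05 to 0.01), glutathione (−0.01 to 0.08), lipid-associated macrophage (−0.06 to 0.04), microRNA pathway (−0.18 to 0.00) and matrix (−0.08 to 0.19) lists. The causes were not tested. With 3 libraries a group and counts that turn on 1 library, genes near the threshold cannot be ordered.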

Other observations

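A published list of 10 genes used to score MAP kinase pathway activity was added after the values of several members had been seen, so its count is a description and not independent of them. Of its members 7 were tested (Ccnd1, Epha2, Etv5, Dusp4, Dusp6, Phlda1 and Spry2), 4 rose and 0 fell, and all 7 were above 0 with no overlap between overexpression and sponge. Over all tested genes 0.482% rose and 8.71% were higher with no overlap. All 121 called genes lay without overlap, so the 4 that rose add nothing to that count. The median log2 fold change was 0.84 between the arms and 0.32 between the mutated control and scramble. Dusp6, an ERK phosphatase, had 199, 227 and 185 CPM with overexpression and 134, 105 and 155 CPM with the sponge, and did not pass (log2 fold change 0.63, SE 0.13, edgeR adjusted p = 0.0503). Spry2, a feedback inhibitor of receptor tyrosine kinases, had 14.4, 12.6 and 11.5 CPM with overexpression and 9.69, 8.53 and 10.2 CPM with the sponge, and did not pass either (log2 fold change 0.45, SE 0.10, edgeR adjusted p = 0.061). Per library the list's median deviation from the mean of the 10 libraries was 0.53, 0.67 and 0.36 (log2) with overexpression and −0.35, −0.67 and −0.24 with the sponge. It was −0.15 and 0.28 in the mutated control and −0.22 and −0.16 in scramble, so the 2 mutated control libraries differed by more than the scramble libraries did.

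Eln, the elastin gene, had 0.0169, 0 and 0 CPM with overexpression and 0.156, 0.394 and 0.328 CPM with the sponge, a call that rests on few reads. H2ac23, a histone gene, was also among the falls (1.76, 1.03 and 1.32 CPM with overexpression and 3.69, 2.89 and 4.76 CPM with the sponge; log2 fold change −1.43, SE 0.23, edgeR adjusted p = 0.0238).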
